A study of Mus musculus with 6 samples.

Results

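Immediate early genes of neuronal activity are described here across RNA bound to tagged ribosomes of S100a10-expressing cells and RNA of whole mouse cortex. The set holds 10 genes (Fos, Fosb, Junb, Egr1, Egr2, Egr3, Egr4, Arc, Npas4 and Nr4a1), chosen by name, and covers the 12 of 45101 probe sets whose single platform gene symbol is one of them. Both groups came from cortex of the untreated transgenic line ES691, in which S100a10 regulatory sequence on a bacterial artificial chromosome drives a tagged ribosomal protein, backcrossed for 3 to 5 generations from FVB to C57BL/6; the animals' age and number are not given in the labels. The TRAP group held 3 samples of RNA precipitated with the tagged ribosomes (translating ribosome affinity purification). The other 3 samples were RNA left in whole cortex lysate, named input in the sample titles, flow-through in the design text, and called unbound here; they still hold RNA of S100a10-expressing cells. By the design text the construct also marks some non-neuronal cells, and the list of probe sets it recommends was not used here. The labels call the samples independent biological replicates but do not name their animals, so p-values measure only how far these samples spread, part of which may be technical.

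Immediate early genes are transcribed soon after a neuron fires, without the need for new protein synthesis. Calcium that enters through NMDA receptors and L-type channels activates kinases, and these phosphorylate factors such as CREB and the partners of SRF that already sit at the genes. The products are mostly transcription factors that switch on a later set of genes, while Arc acts at the synapse itself. Their transcripts are short-lived, and in cortex they are widely used as a record of recent activity.

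Values are array intensities on a linear scale, normalised by the authors, and differences are in log2 of intensity. S100a10, the driver gene, measured 14128 ± 1095 in TRAP RNA and 2430 ± 451 in unbound RNA (SD, n = 3 each), a 5.86-fold difference with a limma adjusted p of 8.3e-05. Of 7 tested markers of pyramidal neurons, the class the labels name, 2 were higher and 2 lower in TRAP RNA by limma. Of 9 tested markers of meningeal fibroblasts 9 were higher, with a summed intensity of 49571 to 54112 on the TRAP arrays and 6638 to 10003 on the unbound arrays. Of 7 oligodendrocyte markers 7 were lower (summed 8346 to 13715 and 51579 to 56994 on TRAP and unbound arrays), as were 7 of 8 interneuron, 6 of 6 striatal and 7 of 8 microglial markers. Genes were tested where a group mean reached 50. Foxc2, Col1a2, Foxc1 and Lum passed that filter through TRAP alone (unbound means 46.4, 44.9, 47.5 and 6.26), so the filter set their direction. Likewise the microglial P2ry12, Cx3cr1, Gpr34 and C1qa passed through unbound alone (TRAP means 7.44, 16.4, 8.23 and 24.7). No tested marker was at 0 on any array, but values as low as these lie far under 50 or near it. TRAP RNA was bound to tagged ribosomes, whereas unbound RNA was left in the lysate. For a lower marker, fewer tagged cells of a type, less of its RNA per cell and less of it on ribosomes cannot be told apart.

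The arrays of replicate number 1 stood apart for these genes, in both groups alike. In TRAP RNA replicate 1 was the highest of the 3 arrays for 8 of the 10 genes, and in unbound RNA it was highest or shared the highest value for 10. It was the highest array in both groups for 8 of 10 genes, against 18.2% of all genes tested; replicates 2 and 3 were highest in both groups for 0 of the 10 each, against 9.19% and 7.52% of all genes. A stricter count asked that 1 replicate number lie at least 2-fold above both others in both groups. For replicate 1 this held for 8 of 12070 genes (0.0663%), and these 8 were Npas4, Junb, Arc, Egr2, Nr4a1 and Fos of the set, together with Ier2 and Dusp1. For replicate 2 it held for 2 genes (0.0166%), Eif2s3y and 2610524H06Rik. For replicate 3 it held for 2 (0.0166%), Ttr and Sycp3, with 0 members of the set in either replicate. This count was chosen after the values were seen and carries no test.

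**Figure D1:**
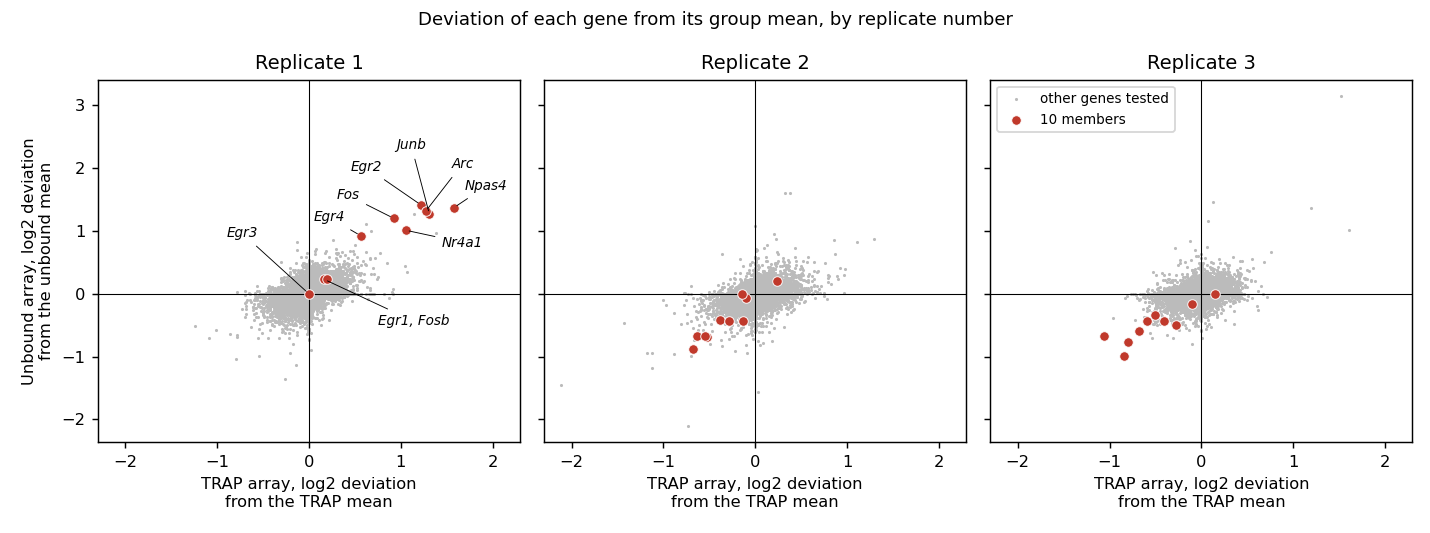
Deviation of each gene from its group mean in log2 units, with the TRAP array on the x axis and the unbound array of the same replicate number on the y axis, in 1 panel per replicate number; grey points are the other genes tested and red points the 10 immediate early genes. In the panel of replicate 1, Npas4, Junb, Arc, Egr2, Nr4a1, Fos and Egr4 lie at the upper right, at the edge of the cloud of other genes or beyond it, while Egr1, Fosb and Egr3 lie inside it.

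Ier2, an early-response gene outside the set, measured 1114, 310 and 368 in TRAP RNA, against 729, 153 and 249 in unbound RNA. Dusp1, a phosphatase that switches off MAP kinases and is itself an early-response gene, measured 8046, 1758 and 2054 in TRAP RNA, against 4739, 1736 and 1754 in unbound RNA. Both were named because they met the 2-fold count above, which fixes the shape they share with the 6 members. That shape is a single high array in each group and 2 low ones. What distinguished the samples of replicate 1 is not given in the labels. Medians of the 9 cell type marker lists deviated on TRAP replicate 1 by -0.32 to -0.06 (log2) from the TRAP mean. On unbound replicate 1 they deviated by -0.31 to 0.07 from the unbound mean. The median member deviated by 0.99 and 1.10 on these arrays. The part of cell types in the replicate 1 lead was not tested. The member differences and the counts of called genes were also computed without both arrays of replicate 1.

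The promoters of the genes that carry these differences are shown to give the sequence next to the values. They are the 250 bases before the start site in RefSeq on GRCm38.p6, for the member with the highest lead of replicate 1 (Npas4), the founding member of the group (Fos), a pair of the members higher in TRAP RNA with pairing taken into account (Nr4a1 and Egr4) and the member lower in both analyses (Fosb). Capitals mark TGACG or its reverse complement CGTCA, the core of the site bound by CREB. The sequences lie at chr19:4989972-4990221 (minus strand), chr12:85473640-85473889 (plus strand), chr15:101266596-101266845 (plus strand), chr6:85513590-85513839 (minus strand) and chr7:19310046-19310295 (minus strand), and each is written 5′ to 3′ toward the gene.

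Npas4: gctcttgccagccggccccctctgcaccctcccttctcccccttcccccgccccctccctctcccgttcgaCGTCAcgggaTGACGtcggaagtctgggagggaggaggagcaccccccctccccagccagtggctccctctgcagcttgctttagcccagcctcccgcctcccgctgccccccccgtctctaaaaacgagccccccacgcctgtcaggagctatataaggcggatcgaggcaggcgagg

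Fos: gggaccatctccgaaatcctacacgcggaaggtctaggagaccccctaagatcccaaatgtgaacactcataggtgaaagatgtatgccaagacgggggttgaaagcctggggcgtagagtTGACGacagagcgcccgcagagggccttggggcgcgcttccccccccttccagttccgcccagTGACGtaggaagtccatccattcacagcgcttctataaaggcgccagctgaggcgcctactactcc

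Nr4a1: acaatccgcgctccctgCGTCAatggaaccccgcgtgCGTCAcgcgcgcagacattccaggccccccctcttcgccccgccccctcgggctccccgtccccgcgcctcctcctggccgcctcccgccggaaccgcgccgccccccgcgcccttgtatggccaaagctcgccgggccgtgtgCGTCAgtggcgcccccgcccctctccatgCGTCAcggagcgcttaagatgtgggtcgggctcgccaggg

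Egr4: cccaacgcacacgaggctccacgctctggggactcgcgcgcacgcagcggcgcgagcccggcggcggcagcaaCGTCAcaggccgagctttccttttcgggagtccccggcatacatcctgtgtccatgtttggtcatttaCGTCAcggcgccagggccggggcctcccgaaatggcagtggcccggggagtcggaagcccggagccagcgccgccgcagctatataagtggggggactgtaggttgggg

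Fosb: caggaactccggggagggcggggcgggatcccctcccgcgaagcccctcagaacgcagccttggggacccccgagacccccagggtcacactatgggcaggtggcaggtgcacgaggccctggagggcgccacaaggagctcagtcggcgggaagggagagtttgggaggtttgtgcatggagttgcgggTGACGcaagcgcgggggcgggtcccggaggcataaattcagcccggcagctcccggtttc

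Promoters of 7 of the 10 genes were in the table used, and 7 of these 7 held TGACG on either strand, against 19.8% of the 27025 genes with a promoter there. Nr4a1 has 4 copies, Npas4, Fos and Egr4 have 2 each, and Fosb and Junb have 1 each. Egr2 has 5 annotated start sites in the table, of which 3 overlapping windows hold 2 copies each and 2 windows hold 0, so its match depends on the start site. The 8-base palindrome TGACGTCA, which contains the shorter motif on both strands, was in 0 of the 7 windows and in 1.77% of all genes. A CArG box, the site of SRF, was found for Egr2 alone of the 7 (1.62% of all genes), and GCGNGGGCG, the site of the Egr family, for Fosb and Nr4a1 (5.33% of all genes). A match describes the letters in this window only.

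Fos, Fosb and Junb encode subunits of the AP-1 transcription factor, in which a Fos protein pairs with a Jun protein. Fos measured 10796, 5212 and 3286 in TRAP replicates 1, 2 and 3, against 10585, 3409 and 2714 in unbound replicates 1, 2 and 3. Replicate 1 was the highest in each group and the groups overlapped, and the difference was 0.31 (log2, SE 0.70, limma adjusted p = 0.716). Junb measured 684, 178 and 172 in TRAP RNA, against 679, 177 and 188 in unbound RNA. The replicate 1 arrays were 3.85-fold above the next in TRAP RNA and 3.61-fold in unbound RNA, whereas TRAP and unbound arrays of 1 number differed by at most 1.09-fold. Its group difference was -0.04 (SE 0.81, adjusted p = 0.971).

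Fosb differed from its relatives in both respects. It measured 61.8, 64.9 and 41.7 in TRAP RNA, against 131, 129 and 82.7 in unbound RNA. Every TRAP array lay below every unbound array, and replicate 1 was not set apart in either group. Fosb was 2.03-fold lower in TRAP RNA (log2 -1.02, SE 0.26, limma adjusted p = 0.0194). Its level lies close to the limit of 50 used for testing. The call was lost without unbound replicate 1 (adjusted p = 0.0653) or unbound replicate 2 (adjusted p = 0.0678), and without both arrays of replicate 1 (adjusted p = 0.123), where the difference was -0.99.

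**Figure D2:**
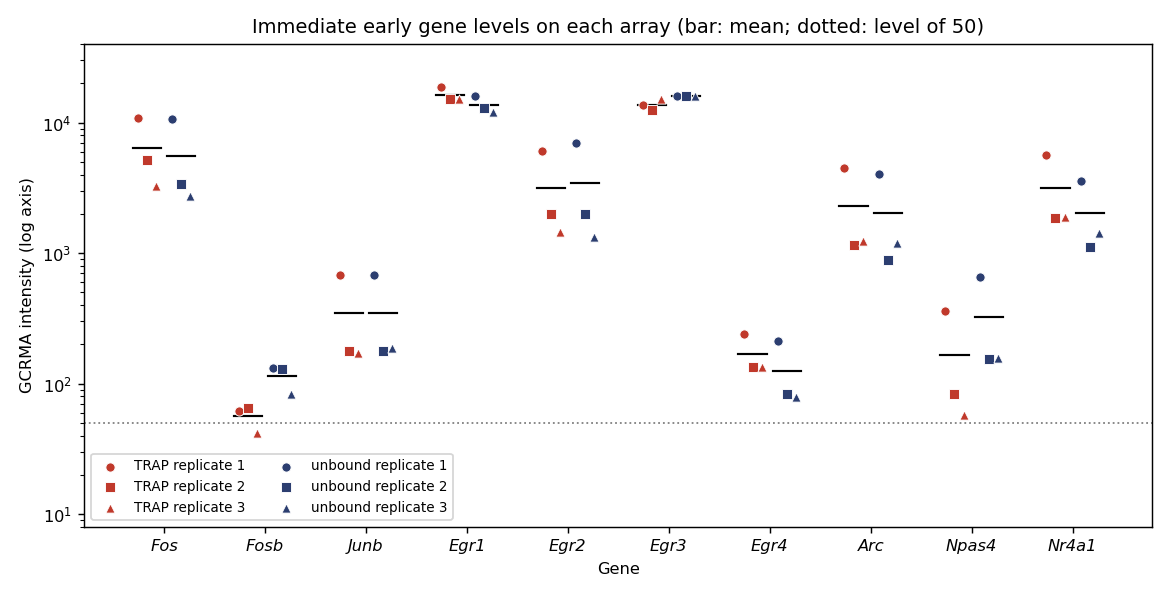
Intensity (log axis) of the 10 genes on each array, with TRAP arrays in red and unbound arrays in blue, the symbol giving the replicate number and the bar the group mean; heights of different genes come from different probes and are not comparable. Circles, the replicate 1 arrays, stand above squares and triangles for Fos, Junb, Egr2, Egr4, Arc, Npas4 and Nr4a1 in both groups, and Fosb shows TRAP values of 41.7 to 64.9 below unbound values of 82.7 to 131.

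The 4 Egr genes encode zinc finger factors that bind GC-rich sites. Egr2 followed the shape of Junb, with 6039, 1994 and 1446 in TRAP RNA, against 7003, 1978 and 1318 in unbound RNA. Its second probe set gave 3005, 894 and 617 in TRAP RNA, against 2928, 735 and 521 in unbound RNA. Both probe sets thus put replicate 1 about 3-fold or more above the next array (3.03-fold and 3.36-fold in TRAP RNA, 3.54-fold and 3.98-fold in unbound RNA). Neither was called, with log2 differences of -0.02 (SE 0.85, limma adjusted p = 0.984) for the gene and 0.19 (SE 0.92, adjusted p = 0.868 among all probe sets) for the second probe set.

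Egr4 measured 240, 134 and 134 in TRAP RNA, against 212, 82.8 and 79.4 in unbound RNA. TRAP replicates 2 and 3 hold the identical value. The groups overlapped, and the difference was 0.54 (SE 0.48, limma adjusted p = 0.355). Without replicate 1 it was 0.72, with an adjusted p of 0.00265, a test in which the repeated value lowers the spread.

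Egr1 and Egr3 varied less between replicates than the other members. Their SD of log2 levels within groups was 0.19 and 0.10, against a median of 0.13 over all genes. Egr1, a factor with high baseline expression in cortex, measured 18645, 15160 and 15160 in TRAP RNA, against 16101, 12987 and 12108 in unbound RNA. TRAP replicates 2 and 3 are again identical, replicate 1 led by 1.23-fold in TRAP RNA and 1.24-fold in unbound RNA, and the difference was 0.25 (SE 0.14, limma adjusted p = 0.170). Egr3 measured 13675, 12402 and 15147 in TRAP RNA, against 16025 on each of the 3 unbound arrays. It was 1.17-fold lower in TRAP RNA (log2 -0.23, SE 0.08, limma adjusted p = 0.0478), close to the median of all genes of -0.21, and the identical unbound values give a spread of 0 in that group. With each array centred on the median of the genes tested, Egr3 differed by -0.02 (adjusted p = 0.892). It was also not called in 5 of the 6 fits that left out 1 array (every array but TRAP replicate 3, adjusted p from 0.0659 to 0.115). The other Egr3 probe set stayed under 50, at 27.1, 27.0 and 27.0 in TRAP RNA, against 31.3, 31.6 and 31.3 in unbound RNA, and was not tested.

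Npas4 encodes a transcription factor induced by calcium entry that acts on inhibitory synapses of excitatory neurons. It measured 359, 83.6 and 57.6 in TRAP RNA, against 651, 156 and 158 in unbound RNA. Replicate 1 was 4.29-fold above the next array in TRAP RNA and 4.12-fold in unbound RNA, and within each number the TRAP array was the lower of the pair. The groups overlapped because of that spread, and the difference of -1.07 (a 2.10-fold lower mean) was not called (SE 0.94, limma adjusted p = 0.351). Without both arrays of replicate 1 it was -1.18 (adjusted p = 0.0337).

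Nr4a1 encodes an orphan nuclear receptor that acts as a transcription factor. It measured 5630, 1859 and 1906 in TRAP RNA, against 3583, 1114 and 1414 in unbound RNA. TRAP was the higher of each pair, yet the 2 lower TRAP arrays lay under unbound replicate 1, and the difference of 0.61 was not called (SE 0.65, limma adjusted p = 0.443). Arc encodes a dendritic protein that promotes removal of AMPA receptors from synapses. It measured 4491, 1163 and 1233 in TRAP RNA, against 4018, 883 and 1199 in unbound RNA, with a difference of 0.20 (SE 0.82, limma adjusted p = 0.841). Both genes carried the replicate 1 lead, of 2.95-fold for Nr4a1 and 3.64-fold for Arc in TRAP RNA, and of 2.53-fold and 3.35-fold in unbound RNA.

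Over the 10 genes, limma called 0 higher and 2 lower (Fosb and Egr3) in TRAP RNA. Of all 12070 genes tested it called 23.3% higher and 45.7% lower, so the share of members called was below that background in both directions. Among the 11 tested probe sets 0 were higher and 2 lower, against 20.6% and 47.7% of 22591 probe sets, and with the replicate number as a block 3 and 2, against 21.9% and 49.5%. The member median was a log2 difference of 0.09, against -0.21 for all genes. TRAP and unbound ranges did not overlap for 2 genes, both lower, where 49.6% of all genes lay wholly lower and 25.9% wholly higher.

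The spread between replicates of these genes was wide, and it was shared by TRAP and unbound arrays of 1 number. The SD of log2 levels within groups had a median of 0.93 over the 10 genes, against 0.13 over all genes. It was above 0.5 for 7 of the 10, where 0.853% of all genes passed that limit. The SD of the log2 ratio of TRAP to unbound over the 3 replicate numbers had a median of 0.17, against 0.13 over all genes. For Junb these spreads were 1.12 for the level and 0.08 for the ratio, and for Npas4 1.29 and 0.33. The ratio varied less than the level for 9 of 10 members (Egr3 was the exception) and for 33.8% of all genes.

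**Figure D3:**
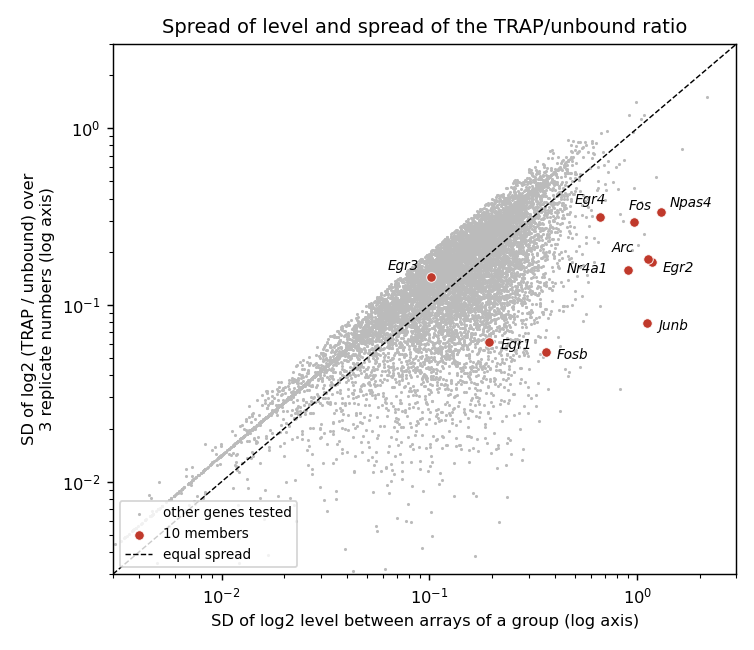
For each gene, the SD of log2 level between arrays of a group (x axis) against the SD over 3 replicate numbers of the log2 ratio of TRAP to unbound (y axis), both on log axes; grey points are other genes, of which 277 with either SD under 0.003 are not drawn, and the dashed line marks equal spread. The members other than Egr3 lie below the line, and 7 of them lie at a level SD above 0.5.

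Replicate numbers pair the samples in these data (as described with the processing), and with the replicate number as a block 5 members were called. Nr4a1, Egr4 and Egr1 were higher in TRAP RNA (limma adjusted p with the block = 0.00772, 0.0433 and 0.0125) and Fosb and Npas4 were lower (9.3e-04 and 0.0101). Egr3 lost its call with the block (adjusted p = 0.0630). Among all genes the blocked fit called 24.8% higher and 48% lower, so 3 of 10 members higher is near the background share and 2 of 10 lower is below it. The part of the marker shifts given above in these member differences was not tested. Nr4a1 was 1.57-fold, 1.67-fold and 1.35-fold higher in TRAP RNA in replicates 1, 2 and 3. Egr4 was 1.13-fold, 1.62-fold and 1.69-fold higher, and Egr1 1.16-fold, 1.17-fold and 1.25-fold higher.

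Fosb was lower in TRAP RNA by 2.12-fold, 1.98-fold and 1.99-fold in replicates 1, 2 and 3, and Npas4 by 1.81-fold, 1.86-fold and 2.74-fold. Fosb is thus the member with the steadiest ratio, while Npas4 has the widest of the called ones. Fos was 1.02-fold, 1.53-fold and 1.21-fold higher and Arc 1.12-fold, 1.32-fold and 1.03-fold higher, and neither was called with the block (adjusted p = 0.130 and 0.126). Junb and Egr2 had ratios on both sides of 1. In all 3 numbers 5 genes were higher and 3 lower, where 30.3% of all genes were higher and 55.3% lower in all 3.

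**Figure D4:**
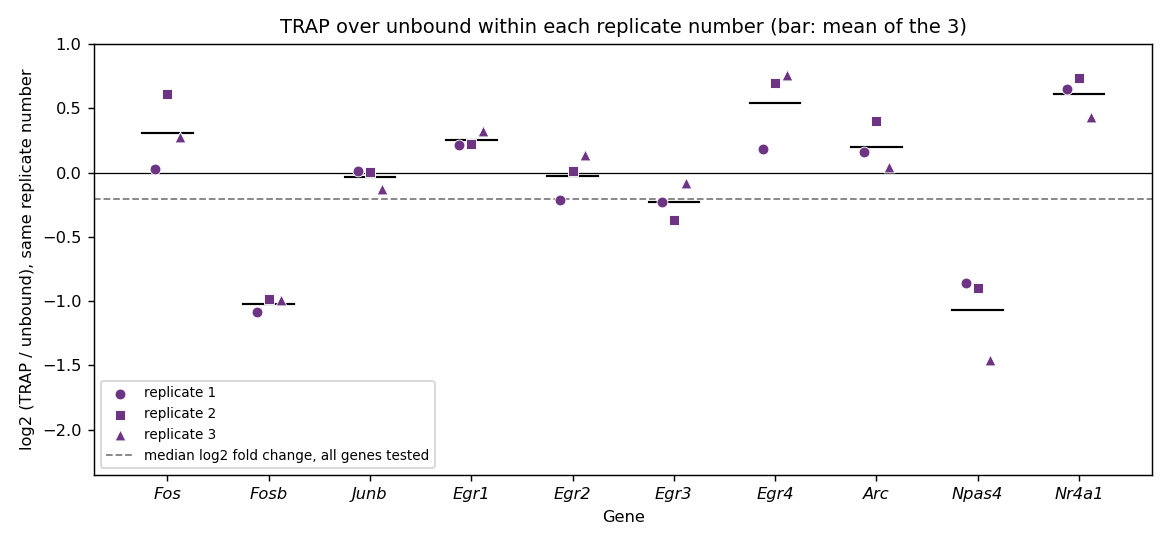
Log2 ratio of the TRAP array to the unbound array of the same replicate number for the 10 genes, with the symbol giving the number, the bar the mean of the 3 and the dashed line the median of all genes at -0.21. Nr4a1, Egr4 and Egr1 lie above 0 and Fosb and Npas4 below it in all 3 numbers, and Junb and Egr2 lie on both sides of 0.

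These differences are relative to how the arrays are scaled. After each array was centred on the median of the genes tested, a shift of 0.21 in every difference, Egr1 was called higher at 0.46 (limma adjusted p = 0.0170) and Fosb remained lower at -0.81 (adjusted p = 0.0221), while Junb and Egr2 turned from below to above 0 (0.17 and 0.19). In that fit 34% of all genes were higher and 33.2% lower. Centring on the median of all probe sets instead gave 1 member higher and 0 lower, against 47.3% and 22.3% of all genes. Centring on the median of the genes tested was also combined with the block. In that combined fit 5 members were higher (Fos, Arc, Egr1, Egr4 and Nr4a1) and 2 lower (Fosb and Npas4). Of all genes 36.5% were higher and 36% lower there. Without both arrays of replicate 1, and with no centring or block, Egr1 and Egr4 were called higher and Npas4 lower. Of all genes 20.2% were higher and 39.3% lower in that fit. The 2 TRAP values left for Egr1 are identical, as are those for Egr4, which lowers the spread in both tests.

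Other genes of the activity response were listed by function. Of 24 tested transcription regulators of the early response outside the set, 7 were higher and 3 lower in TRAP RNA, where 23.3% of all genes were higher and 45.7% lower. Their median log2 difference was 0.31. Klf4, a zinc finger factor of the Krüppel-like family, measured 4625, 2782 and 1918 in TRAP RNA, against 227, 140 and 112 in unbound RNA. It was 19.1-fold higher (log2 4.25, SE 0.42, limma adjusted p = 6.1e-04), far from overlap. Cebpd, a leucine zipper factor, was 4.58-fold higher (adjusted p = 0.00800) and Zfp36, which promotes decay of mRNAs, 3.36-fold higher (adjusted p = 0.00193). Markers of meningeal fibroblasts moved the same way (9 of 9 higher, with the filter limit given above). So did 5 of 6 markers of pericytes and smooth muscle (summed 5412 to 6768 on the TRAP arrays and 1883 to 2227 on the unbound arrays). Endothelial markers were mixed (1 higher and 2 lower of 3), as were those of astrocytes (2 higher and 4 lower of 8). Of those called lower, Slco1c1 and Gfap passed the filter through unbound alone (TRAP means 42.0 and 20.1). The part of these cell types in the values was not tested.

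Nr4a2, a relative of Nr4a1, moved opposite to these and was 2.45-fold lower in TRAP RNA, with 1943, 2035 and 1718 against 5108, 5351 and 3668 in unbound RNA (limma adjusted p = 0.00157). With the block the list had 11 higher and 6 lower, against 24.8% and 48% of all genes. Replicate 1 was the highest array in both groups for 18 of the 24, against 18.2% of all genes, so most of this list shared the replicate pattern of the members at smaller size.

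Of 17 tested early-response effectors 2 were higher and 4 lower, against 23.3% and 45.7% of all genes, so the list lay below the background in both directions. The median log2 difference was -0.04. Ptgs2, the inducible cyclooxygenase, measured 44.2, 44.2 and 59.2 in TRAP RNA, against 325, 282 and 283 in unbound RNA (limma adjusted p = 6.8e-05). It passed the level filter through the unbound group alone, its TRAP mean being 49.2, so its log2 difference of -2.60 rests on TRAP values near or under the limit. Plk2, a kinase that acts at synapses, was 2.24-fold lower (adjusted p = 0.00154) and Rgs2, an inhibitor of G protein signalling, 1.59-fold lower (adjusted p = 0.00354). Sik1, a salt-inducible kinase, measured 60.6, 60.6 and 57.3 in TRAP RNA, against 32.0, 36.9 and 27.3 in unbound RNA, and was called higher (adjusted p = 0.00159). It was tested only because the TRAP mean passed 50. Replicate 1 was highest in both groups for 11 of these 17.

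Late-response genes of neurons include the secreted and synaptic products that follow the early factors. Of 14 tested 10 were lower and 1 higher, where 45.7% of all genes were lower and 23.3% higher. The median log2 difference was -0.84, against -0.21 for all genes. The receptor gene Sorcs3 was 4.17-fold lower, with TRAP values identical at 53.8 on all 3 arrays (limma adjusted p = 9.4e-05). Crh, the stress peptide of a class of interneurons, was 3.42-fold lower (adjusted p = 0.00128), the activin subunit Inhba 3.30-fold (adjusted p = 0.00448) and the pentraxin Nptx1 2.87-fold (adjusted p = 0.00738). Replicate 1 was the highest array in both groups for 0 of these 14. The median of this list on the replicate 1 arrays was -0.18 and -0.14 (log2) from the TRAP and unbound means, on the other side of 0 from the early genes. Interneuron markers were lower as well (7 of 8, summed 12509 to 15203 on the TRAP arrays and 32317 to 33196 on the unbound arrays), and their part in this list was not tested.

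Of 31 tested genes that lead from calcium, cyclic AMP and MAP kinases to CREB, SRF and MEF2, 19 were lower and 1 higher, where 45.7% of all genes were lower and 23.3% higher. Their median log2 difference was -0.36, against -0.21 for all genes. Rps6ka5, a kinase that phosphorylates CREB, was 3.41-fold lower in TRAP RNA (limma adjusted p = 5.5e-04) and Cacna1d, an L-type calcium channel, 2.86-fold lower (adjusted p = 2.5e-05). The kinase gene Camk2a and the NMDA receptor gene Grin2b were 2.84-fold and 2.74-fold lower (adjusted p = 0.00922 and 0.00422). Replicate 1 was highest in both groups for 5 of the 31, a share of 16.1% that is near the 18.2% of all genes. Interneuron markers (7 of 8) and striatal markers (6 of 6) were lower too. Striatal markers summed to 2460 to 3907 on the TRAP arrays and 12868 to 13156 on the unbound arrays. Camk2a is also counted among the pyramidal markers, of which 2 were higher and 2 lower of 7 tested. The part of these cell types in this list was not tested. Over the 4 lists together 11 of 86 tested genes were higher and 36 lower, against 23.3% and 45.7% of all genes, so the share called lower is near the background. With arrays centred on the median of all probe sets the balance turned to 36 higher and 19 lower, against 47.3% and 22.3% of all genes.

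**Figure D5:**
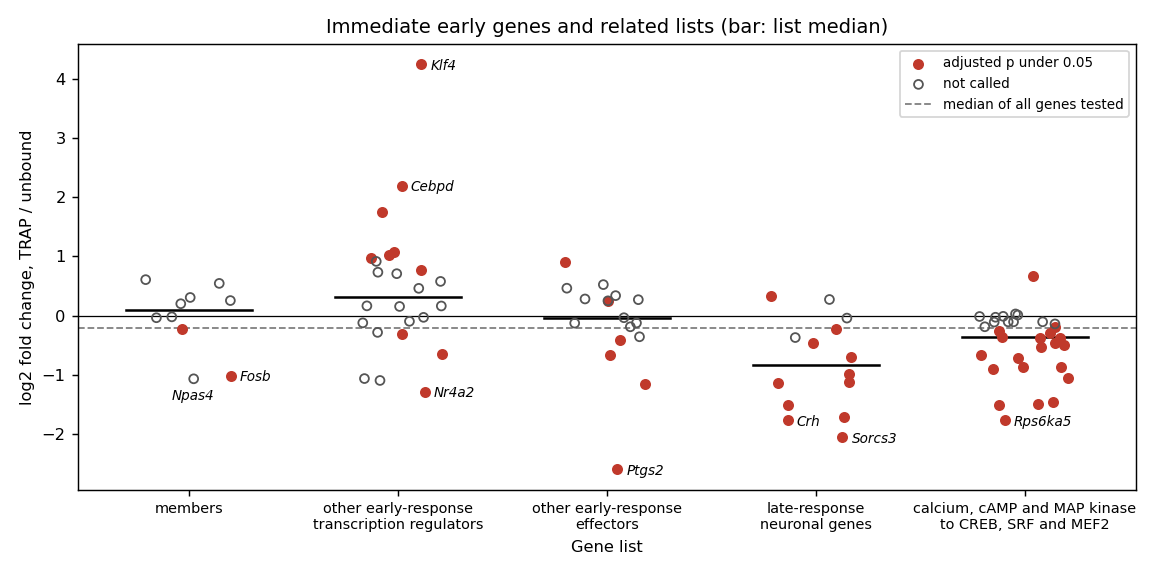
Log2 fold change of TRAP over unbound RNA for the members and the 4 related lists, 1 point per gene, filled red where the limma adjusted p is under 0.05, with bars at list medians and a dashed line at the median of all genes. The late-response and pathway lists have medians of -0.84 and -0.36, and Klf4 at 4.25 and Ptgs2 at -2.60 mark the ends of the early-response lists.

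The genes nearest to the mean profile of the members over the 6 arrays, by Euclidean distance of log2 values less each gene's own mean, were Gadd45g (0.51), Tiparp (0.53), Rab42 (0.77), Trib1 (0.78) and Ido1 (0.79). Gadd45g and Trib1 are also on the list of early-response effectors. Gadd45g measured 1140, 648 and 445 in TRAP RNA, against 1120, 597 and 638 in unbound RNA. Tiparp, a mono-ADP-ribosyltransferase gene, measured 954, 577 and 387 in TRAP RNA, against 1479, 484 and 574 in unbound RNA. Each has its highest value in replicate 1 of both groups, at a lower multiple than Junb, Arc or Npas4. The mean profile used to choose them is itself highest on these 2 arrays, so this lead follows from the choice.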

How the data were processed

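Per the labels' protocols, RNA was amplified with a 2-cycle kit from 15 ng and hybridised to Affymetrix arrays. The authors deposited linear intensities made with GCRMA, per the submitters' processing notes. Neither a version nor whether both groups were processed together is stated there. Arrays of a group share identical values for many probe sets, and 6975 of the 12070 genes had a tested probe set without them. Such repeats lower the spread within a group, on which the calls rest. Array medians over all probe sets were 31.4 to 31.8 in TRAP RNA and 42.4 to 43.1 in unbound RNA. Separate normalisation of the groups was not tested. Differences are relative to the other genes on an array. Probe sets (45101, of them 34958 with 1 symbol, 932 with several, 9211 with none and 64 controls) were kept where a group mean reached 50, giving 22591. The probe set with the highest mean stood for each of 12070 genes. The test on log2 intensities was limma 3.58.1 under R 4.3.3 (group only, two-sided, Benjamini-Hochberg over all genes or all probe sets, threshold 0.05). The code was tested on simulated data.

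Deviations from the group means were correlated across 12070 genes between TRAP and unbound arrays. For the same number r was 0.496, 0.456 and 0.367 (replicates 1, 2 and 3), and between different numbers -0.373 to -0.0458. Deviations of the 3 arrays of a group sum to 0 for each gene. Positive values for the same number thus push the others below 0 by construction, and those add no support. The pairing comes from these data, not from the labels. Descriptions used Python 3.11.15 and pandas 2.3.3. The genes named are the members, S100a10, up to 4 called genes of each related list with the largest fold and no overlap, and the 5 nearest profiles. Ier2, Dusp1, the genes with a 2-fold lead in replicate 2 or 3, marker counts and some marker genes were added. Members and lists were chosen with earlier results of these data known. Symbols are those of the platform annotation, and promoters are from RefSeq on GRCm38.p6. Alternatives were the level filter, scaling, a floor of 50, a pseudocount of 16, a 2-fold test, repeated values, the mean over probe sets, the block and leaving out arrays. Precision is limited by having 3 arrays a group.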

Additional observations from a re-analysis of the deposited data

How the results depend on the processing

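As deposited and without a block, 0 members were higher and 2 lower in TRAP RNA, as genes and as probe sets, 11 and 36 related genes, and 2812 and 5517 of all genes. With the replicate block 3 members were higher, as genes and as probe sets, and the 2 lower were Fosb and Npas4. The block's gain and loss of single calls is given in the report. Of the other counts above, the block moved none by over 1.5 times. Within the related genes, it moved the other early-response transcription regulators from 7 to 11 higher and from 3 to 6 lower. Centring on the median of all probe sets, which moves the median of all genes to 0.23, gave 1 higher and 0 lower members (genes and probe sets), 36 and 19 related genes, and 5713 and 2692 of all genes, with Junb at 0.39, Egr2 at 0.41 and Egr3 at 0.21. Quantile normalisation left 1 lower member and 1 lower probe set, gave 20 higher related genes and 4113 higher and 3983 lower of all genes, and put Junb at 0.23 and Egr2 at 0.11. Centring on the genes tested, an alternative chosen after the data were seen, gave 1 member higher and 1 lower (genes and probe sets), 22 higher related genes and 4105 higher and 4006 lower of all genes, with Junb at 0.17 and Egr2 at 0.19; with the replicate block added it gave 5 higher genes, 6 higher probe sets, 29 higher related genes and 4409 higher of all genes. Against a 2-fold change 0 members were called lower, 1 related gene was higher and 4 lower, and 547 and 792 of all genes. Without a level filter 3 member probe sets were lower, and 4797 and 8354 of all genes, more genes being tested; requiring 50 in both groups or raising values to 50 left 1 lower probe set. Without repeated values, which drops Egr1, Egr3 and Egr4, 1 member and 1 probe set were lower. There 1372 genes were higher and 2734 lower, of 6975 genes tested. Averaging the probe sets of Egr2 put it at 0.083. The pseudocount of 16 moved no count by over 1.5 times. The cause was not tested except where the construction is named.

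Leaving out 1 array, or both arrays of 1 number (chosen after the data were seen), gave 0 to 2 higher and 0 to 2 lower members, likewise for probe sets, and 7 to 14 higher related genes. All genes ranged from 1987 to 2818 higher and from 4075 to 5201 lower. With 1 array left out the difference ranged from -0.16 to 0.91 for Fos, -0.44 to 0.85 for Arc, -0.69 to 0.59 for Junb and -0.63 to 0.68 for Egr2, the last 2 also at 0.0080 (Junb, without both arrays of replicate 3) and 0.073 (Egr2, without both arrays of replicate 1). Fosb (-1.23 to -0.82), Npas4 (-1.86 to -0.39), Nr4a1 (0.08 to 1.11), Egr4 (0.26 to 1.01) and Egr1 (0.15 to 0.37) kept their sign there.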
